A study of Mus musculus with 4 samples.

Results

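The 35 members of the complement system described here were picked by name from the probes of a mouse array: a probe belonged when its gene name, or the current symbol of its transcript, was on the list (C5 is named Hc in the mouse, and Cfd was left out). Probes were found for 34 of the 35 genes, 47 probes in all among 41174 on the array, and 32 of these genes could be tested among 18042 genes in total. Liver RNA was measured in 4 mice treated with an antisense oligonucleotide against Plin2 (Plin2-ASO; mice 6, 7, 9 and 10) and in 4 mice treated with a scrambled control oligonucleotide (mice 1, 2, 4 and 5). An antisense oligonucleotide is a short modified nucleic acid designed to bind one transcript and lower its level, and Plin2 is a protein on the surface of lipid droplets. The mice of both groups were C57BL/6 males fed a high-fat diet, and their oligonucleotide was injected into the abdomen at 25 mg/kg, 2 times a week for 4 weeks; the labels give no age and no liver on another diet or without an oligonucleotide. Each of 4 arrays, numbered 1 to 4, carried the liver of 1 Plin2-ASO mouse in green (Cy3) and that of 1 control mouse in red (Cy5), and is described in the labels as a biological replicate.

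Complement is a set of plasma proteins, most of them made by hepatocytes, that act as a cascade of proteases. The classical pathway starts when C1q binds antibody, the lectin pathway when mannose-binding lectins, ficolins or collectins bind sugars on a surface, and the alternative pathway turns over on its own. The pathways meet at the cleavage of C3, after which C5 to C9 can assemble into a pore in a membrane, while small fragments of C3 and C5 call leukocytes through receptors and a set of inhibitors protects host cells. C1q differs from most of the others in that macrophages, not hepatocytes, are its main source.

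Plin2, the target of the oligonucleotide, did not pass the test and read above 0 on every array, with log2 ratios of Plin2-ASO over control of 0.24, 0.15, 0.83 and 0.36 (mean 0.40 ± 0.15, SE, n = 4; adjusted p = 0.155, limma with Benjamini-Hochberg). The groups are therefore named as the labels name them, and positive values are those where the livers so labelled read higher than the control livers. Both dyes were used in 1 orientation throughout, so the dye of a probe and the treatment cannot be told apart, and swapped labels or dyes would mirror each direction. Median spot signals were 244 to 499 in the Plin2-ASO livers and 256 to 637 in the control livers over local backgrounds of 55.0 to 63.5, and no spot was saturated. Array 3 stood apart, with a mean correlation of 0.33 with the other arrays across genes (0.51 to 0.65 for the others; genes are not independent replicates) and 7.61% of its spots marked as outliers during feature extraction. The 4 arrays shared 1 slide and 1 scan. A log2 ratio of 1 is a 2-fold difference, and log2 signals are the normalized brightness of a probe in each liver, which compares livers for that probe and not genes with each other. The p-values concern the spread between 4 pairs of mice, which limma moderates with the variances of other genes. The SE given with a mean log2 ratio is this moderated SE, and it can be smaller than that of the 4 ratios alone. The SE of a difference between genes or probes is not moderated. In whole liver, fewer cells of a type and less RNA per cell cannot be told apart.

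Complement genes moved in both directions. Of the 32 members tested, 6 were higher in the Plin2-ASO livers (C6, C8a, Fcna, Mbl1, Serping1 and C4bp), 4 were lower (C3ar1, C3, C1qb and C5ar1) and 22 did not pass an adjusted p of 0.05, so that 31.25% of the tested members were called, against 9.77% of all genes. The higher share was 6 of 32 members, against 3.69% of all genes, and the lower share 4 of 32 members, against 6.07% of all genes. The log2 signals of the livers did not overlap between the groups for 14 of the 32 members, against 17.8% of all genes: the 10 called members and C1qa, C4a, Masp1 and Vtn. The median log2 ratio of the tested members was 0.16, against -0.03 over all genes, and lay at 0.24, 0.13, 0.15 and -0.04 on arrays 1 to 4. The call of C3 rests on 1 of its 2 probes, and the other probe had a mean of the opposite sign.

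**Figure D1:**
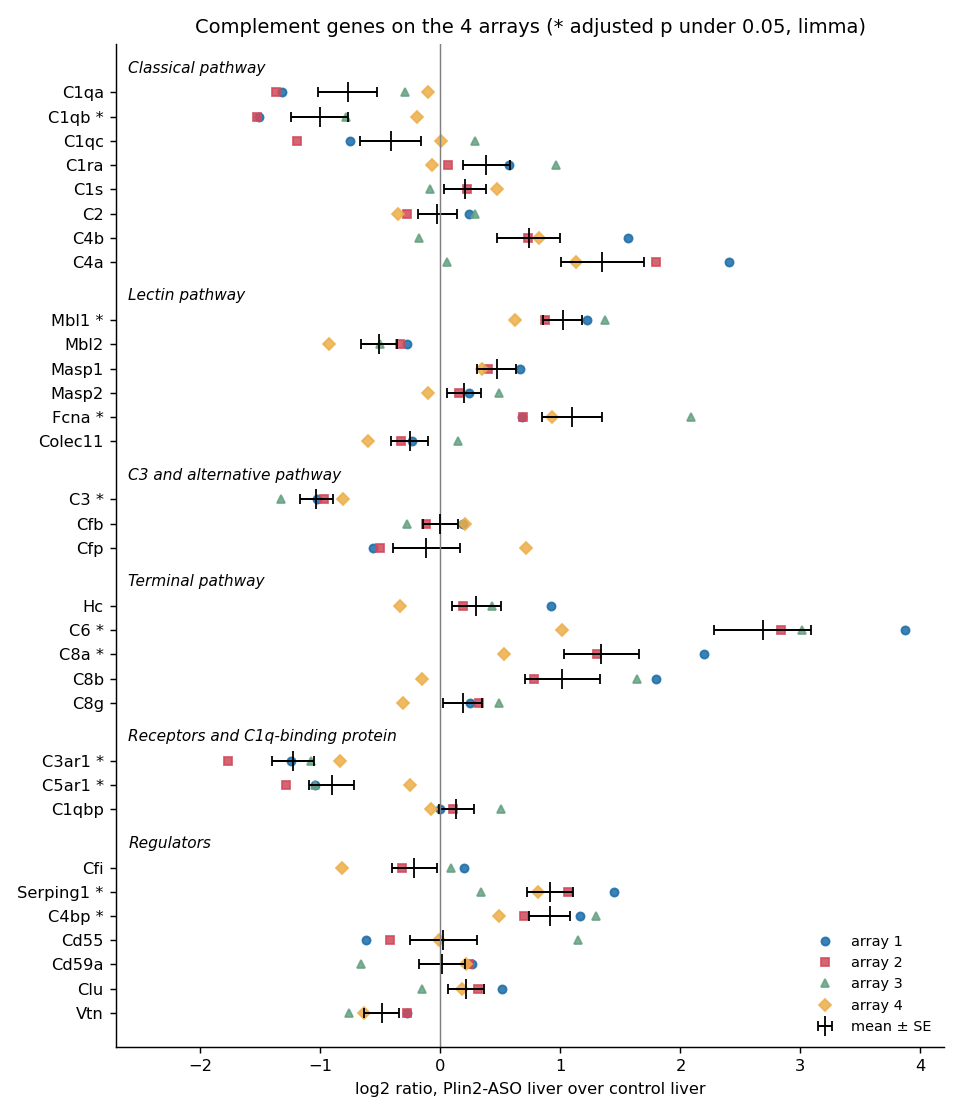
Log2 ratios of Plin2-ASO over control for the 32 members tested, grouped by pathway. Coloured symbols are the 4 arrays, the black bar is the mean ± moderated SE and a star marks an adjusted p under 0.05 by limma. C6 has the highest mean (2.68) and C3ar1 the lowest (-1.23).

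All these calls come from 4 arrays, and the count depends on which arrays enter. With array 1 left out, 1 of 29 members was called, and with array 2 left out 0 of 28 were called by limma, although 13 of those had an unadjusted p under 0.05, against 16.4% of all genes in that fit. With array 3 left out, 18 of 31 members were called, among them all 10 named above, while the background was 33.3% of all genes. The corresponding shares of all genes without array 1 and without array 2 were 2.16% and 2.11%. Without array 4, 8 of 28 members were called, against 6.66% of all genes. No member past the threshold had a mean of the other sign in any of these fits.

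In the classical pathway 1 of 8 members tested passed (12.5%, near the 9.77% of all genes). It was the B chain of C1q, and it was lower. C1qb had log2 signals of 12.19, 12.63, 12.43 and 12.73 in the Plin2-ASO livers and of 13.71, 14.17, 13.21 and 12.93 in the control livers, on arrays 1 to 4. Every Plin2-ASO liver was below every control liver, with a gap that was wide on arrays 1 and 2 and narrow on array 4. On average the log2 ratio was -1.01 ± 0.24 (SE, n = 4), 2.01-fold lower with an adjusted p of 0.0435 by limma. The call ended without array 1 and without array 2 (adjusted p = 0.215 and 0.206) and in 4 of 11 other settings (adjusted p up to 0.0740). The probe lies on chromosome 4 (136259100 to 136259159, build mm7), as do those of the other chains.

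C1q is built from A, B and C chains encoded side by side, and the other chains did not pass. For C1qa the log2 ratios were -1.32, -1.37, -0.29 and -0.11 from array 1 to array 4 (mean -0.77 ± 0.25, SE, n = 4; adjusted p = 0.0968 by limma), so it was below 0 on every array. C1qc had ratios of -0.76, -1.20, 0.29 and 0.00 (mean -0.42 ± 0.25, adjusted p = 0.332). The A and C chains thus showed the same order of arrays as the B chain in that arrays 1 and 2 were the lowest. Without array 3, where 33.3% of all genes passed, both did (adjusted p = 0.0196 for C1qa and 0.0449 for C1qc). The proteases that C1q activates did not pass: C1ra averaged 0.38 ± 0.19 and C1s, measured on 3 arrays, 0.20 ± 0.18. A probe named C1r in the files, an older symbol of C1ra that the rule did not take, read 1.08, 1.2 and 1.11 on arrays 1, 2 and 4, and whether it reads C1ra or its paralogue C1rb was not tested. C2, the protease part of the C3 convertase, had ratios of 0.24, -0.28, 0.29 and -0.35 and a mean of -0.03 ± 0.16 with a 95% interval of -0.41 to 0.35. A second probe of C2 could be read on arrays 1 and 2 alone, at 0.65 and 0.25, where the first probe lay on both sides of 0.

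Complement C4 is cut by C1s and by the lectin pathway proteases and binds covalently to surfaces. The mouse has C4b, the complement protein proper, and its close relative C4a, the sex-limited protein, next to it on chromosome 17. The 60-base array probes of these paralogues are shown because assignment between such similar genes depends on them. They lie 96.5 kb apart on build mm7, on the minus strand, and share no run of bases longer than 5.
C4b probe (chr17:32815561-32815620): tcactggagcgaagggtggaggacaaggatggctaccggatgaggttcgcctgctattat
C4a probe (chr17:32912160-32912219): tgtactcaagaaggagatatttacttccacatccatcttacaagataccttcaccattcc
How far each probe also binds the transcript of the other gene was not tested, so the split between the paralogues is uncertain. For C4a the log2 ratios were 2.41, 1.80, 0.06 and 1.13 by array, with a mean of 1.35 ± 0.35 (SE, n = 4) and an adjusted p of 0.0541 by limma. C4b had ratios of 1.56, 0.73, -0.18 and 0.82, a mean of 0.73 ± 0.26 and an adjusted p of 0.125. Neither passed, and for both the ratio on array 3 was near 0 while the other arrays were well above it. Without array 3 both passed, as did 33.3% of all genes, with means of 1.78 for C4a and 1.04 for C4b (adjusted p = 0.00107 and 0.00392). The log2 ratio of C4a exceeded that of C4b on all 4 arrays by a mean of 0.61 ± 0.20 (SE), with an exact sign-flip p of 0.125, two-sided, the smallest that 4 arrays allow.

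Among the lectin pathway genes, 2 of 6 tested were higher, against 3.69% of all genes, and none was lower by limma. Of these 6 genes 4 had an unadjusted p under 0.05, against 26.9% of all genes. Mbl1 encodes mannose-binding lectin A, a sugar-binding starter of the pathway. Its log2 signals were 15.16, 14.80, 15.38 and 14.77 in the Plin2-ASO livers and 13.94, 13.94, 14.01 and 14.15 in the control livers. The control livers lay close together (SD 0.10) and every Plin2-ASO liver was above them. This gave a mean log2 ratio of 1.02 ± 0.16 (SE, n = 4), 2.03-fold higher, with an adjusted p of 0.0122, and the call ended without array 1 and without array 2 (adjusted p = 0.0948 and 0.0691). The probe behind it, shown because Mbl1 held in all 11 settings that kept every array, spans 38581074 to 38583660 on chromosome 14 of build mm7 (plus strand), a stretch longer than the probe itself.
Mbl1 probe (chr14:38581074-38583660): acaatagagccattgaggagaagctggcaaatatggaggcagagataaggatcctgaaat

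Mbl2, which encodes the second mannose-binding lectin of the mouse, had log2 ratios of -0.28, -0.34, -0.50 and -0.93, all below 0, with a mean of -0.51 ± 0.15 (SE, n = 4; adjusted p = 0.0825 by limma). It passed without array 3 (adjusted p = 0.0345), as did 33.3% of all genes. The ratio of Mbl1 exceeded that of Mbl2 on all 4 arrays, by 1.5, 1.2, 1.88 and 1.55. That difference averaged 1.53 ± 0.14 (SE), and its exact sign-flip p of 0.125 (two-sided) is the smallest possible with 4 arrays.

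Fcna encodes ficolin A, a lectin that recognises acetylated sugars and that is known from macrophages of mouse liver and spleen. Its log2 signals were 11.03, 11.31, 11.86 and 10.95 in the Plin2-ASO livers and 10.35, 10.63, 9.77 and 10.02 in the control livers. The groups did not overlap, and the widest gap was on array 3. The probe lies on chromosome 2 (25632540 to 25632599, build mm7). Ficolin A thus had a mean log2 ratio of 1.1 ± 0.25 (SE, n = 4), 2.14-fold higher with an adjusted p of 0.0376 by limma. The call ended without array 1, 2 or 4 (adjusted p = 0.106, 0.105 and 0.0648), without the background filter (0.0571) and with a robust variance trend (0.0610).

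The proteases and the remaining collectin of the pathway did not pass with the probe used. Masp1, a protease bound to the lectins, was measured on arrays 1, 2 and 4 at 0.66, 0.40 and 0.35 (mean 0.47 ± 0.16, adjusted p = 0.126 by limma). A second Masp1 probe above background read -0.12, -0.49, 0.67 and -0.39 on the 4 arrays and averaged -0.08, and another had ratios of 1.13, 0.67, 0.49 and 1.28 with an adjusted p of 0.0196 in a fit of all kept probes. The Masp1 locus yields several transcripts by alternative splicing, and which of them each probe reads was not determined here. Masp2, the protease that cuts C4 and C2, averaged 0.20 ± 0.14, and its other probes 0.49 and 0.34. Colec11, a collectin, averaged -0.26 ± 0.16. Without array 3, where 33.3% of all genes passed, the mean of Colec11 was -0.39 (adjusted p = 0.0451 by limma). Masp1, which had no value on array 3, passed in that fit with an unchanged mean of 0.47 (adjusted p = 0.0223 by limma).

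C3 is the protein on which all pathways converge, and its 2 probes read opposite directions. The probe with the brighter signal gave log2 signals of 16.08, 16.17, 15.72 and 16.32 in the Plin2-ASO livers and of 17.11, 17.14, 17.04 and 17.13 in the control livers. Every Plin2-ASO liver was lower, and the control livers differed by little (SD 0.04). For this probe the mean log2 ratio was -1.04 ± 0.14 (SE, n = 4), 2.05-fold lower with an adjusted p of 0.00691 by limma. The other probe gave 15.10, 14.81, 14.20 and 14.61 in the Plin2-ASO livers and 13.84, 13.84, 14.86 and 13.74 in the control livers. It was higher in the Plin2-ASO livers on arrays 1, 2 and 4 and lower on array 3, and the groups overlapped. Its mean was 0.61 with an adjusted p of 0.235 in the fit of all kept probes.

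Both C3 probes are given because the reading of this gene turns on which is taken. Both are credited in the files to the same transcript and lie on the minus strand of chromosome 17, 20.9 kb apart on build mm7; the second spans 55435522 to 55435679, a stretch longer than its 60 bases. On the minus strand the first probe is the more 3′ of the pair.
C3 probe used (chr17:55414567-55414626): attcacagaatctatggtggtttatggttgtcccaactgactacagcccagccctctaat
C3 second probe (chr17:55435522-55435679): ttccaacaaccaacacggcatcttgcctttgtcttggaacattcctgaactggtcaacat
The ratio of the first was below that of the second on all 4 arrays, by a mean of -1.64 ± 0.35 (SE; exact sign-flip p = 0.125, two-sided, the smallest possible). With the mean of both probes, C3 averaged -0.21 and did not pass (adjusted p = 0.544), and without array 1 or array 2 the brighter probe missed the threshold (0.0596 and 0.0543). These probes give no single direction for C3, and the cause of their difference was not tested.

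**Figure D2:**
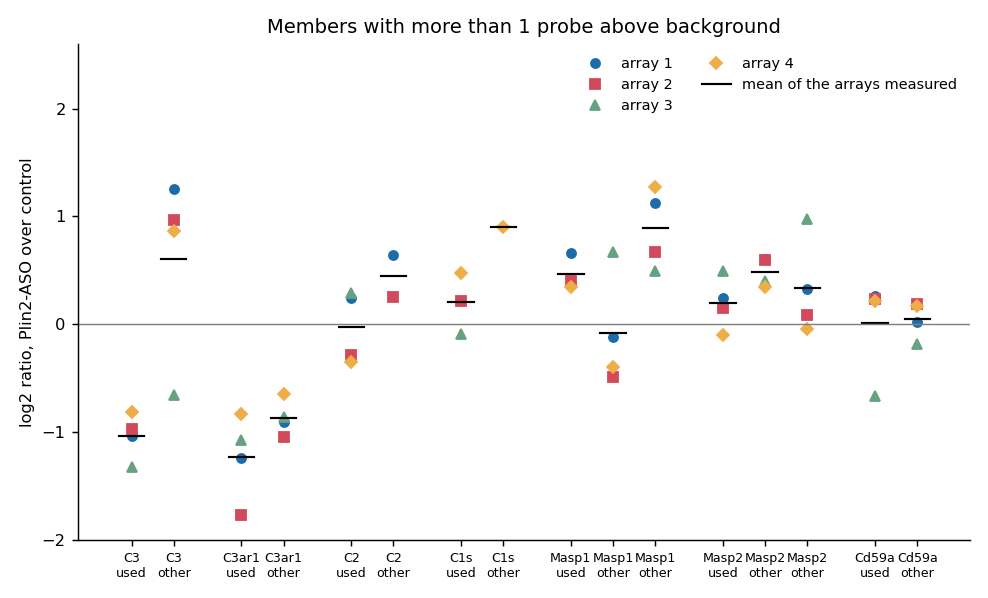
Log2 ratios of Plin2-ASO over control for each probe above background of the members that have more than 1 such probe; "used" is the brightest probe measured on at least 3 arrays and the horizontal line is the mean of the arrays measured. The C3 probes lie on opposite sides of 0 on arrays 1, 2 and 4, while both C3ar1 probes lie below 0 on every array.

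The other members of the alternative pathway did not pass. Cfb, factor B, the protease of the alternative convertase, had log2 ratios of 0.19, -0.12, -0.28 and 0.21, a mean of -0.00 ± 0.14 (SE, n = 4) and a 95% interval of -0.34 to 0.34. Cfp, properdin, which stabilises that convertase, was measured on arrays 1, 2 and 4 at -0.56, -0.51 and 0.71. Its mean was -0.12 ± 0.28 with a 95% interval of -0.80 to 0.56, and array 4 lay on the other side of 0 from arrays 1 and 2. The spot on array 3 was marked as an outlier and read -0.82, which brings the mean to -0.29.

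The terminal pathway held the largest mean change of all members, and 2 of its 5 members tested were higher, against 3.69% of all genes. C6, which joins C5b and C7 to begin the pore, had log2 signals of 15.44, 14.10, 14.91 and 14.64 in the Plin2-ASO livers and of 11.57, 11.26, 11.90 and 13.63 in the control livers. All Plin2-ASO livers were above all control livers, and the control liver on array 4 was well above the other control livers. The log2 ratios were 3.87, 2.84, 3.01 and 1.01, with a mean of 2.68 ± 0.41 (SE, n = 4), 6.43-fold higher and an adjusted p of 0.0103 by limma. The 95% interval was 1.73 to 3.64. Without array 2 the mean was 2.63 and the call ended (adjusted p = 0.0571).
C6 probe (chr15:4626022-4626081, build mm7, plus strand): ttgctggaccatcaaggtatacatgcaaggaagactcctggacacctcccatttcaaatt

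C8 is made of alpha, beta and gamma chains and carries the pore into the membrane. C8a, the alpha chain, was measured on arrays 1, 2 and 4, with log2 signals of 15.43, 14.50 and 14.73 in the Plin2-ASO livers and of 13.24, 13.20 and 14.21 in the control livers. The groups did not overlap, and again the control liver of array 4 was the highest of its group. Over these arrays the mean log2 ratio was 1.34 ± 0.31 (SE, n = 3), 2.53-fold higher with an adjusted p of 0.0490 by limma. This call ended in 6 of 10 other settings (adjusted p up to 0.0783). On array 3 the spot was marked as an outlier and read 1.81. The probe lies on chromosome 4 (104192313 to 104192372, build mm7).

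C8b, the beta chain, had log2 ratios of 1.80, 0.78, 1.64 and -0.15 and a mean of 1.02 ± 0.31 (SE, n = 4; adjusted p = 0.0897 by limma). It was above 0 on arrays 1 to 3 and passed without array 4 (mean 1.41, adjusted p = 0.0151), as did 6.66% of all genes. C8g, the gamma chain, averaged 0.18 ± 0.16 and was likewise below 0 on array 4 alone. Hc, complement C5, had ratios of 0.92, 0.19, 0.43 and -0.34, a mean of 0.30 ± 0.21 and an adjusted p of 0.397. The ratio of C6 exceeded that of C8b on all 4 arrays, by a mean of 1.67 ± 0.23 (SE; exact sign-flip p = 0.125, two-sided, the smallest possible).

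Array 4 gave the lowest ratio of all arrays measured for each of the 5 terminal members tested. C9, which polymerises into the wall of the pore, could not be tested because its spots on arrays 1 and 4 were marked as outliers. Its ratios were 0.81 and 0.61 on arrays 2 and 3, and 1.59 and 0.06 on arrays 1 and 4 when the marked spots were read. C7 had no probe under the rule. A clone probe that carries an older name of C7 was well above background on 1 array in each group and was not kept.

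Promoter windows of 300 bases (250 before and 50 after the start) from RefSeq, assembly GRCm38.p6, are shown for the terminal genes with the largest means. Capitals mark matches to 4 short motifs sought on both strands: the TATA box TATAAA, the core motif of the hepatocyte factor HNF1 (GTTAAT), the C/EBP motif TTGCNNAA and the STAT motif TTCNNNGAA.
C6 promoter (chr15:4726960-4727259, plus strand): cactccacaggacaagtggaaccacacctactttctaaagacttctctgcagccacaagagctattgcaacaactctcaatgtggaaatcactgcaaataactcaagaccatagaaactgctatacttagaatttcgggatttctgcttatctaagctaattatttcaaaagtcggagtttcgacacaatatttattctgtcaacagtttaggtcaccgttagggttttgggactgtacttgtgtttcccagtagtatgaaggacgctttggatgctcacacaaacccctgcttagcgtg
C8a promoter (chr4:104876349-104876648, minus strand): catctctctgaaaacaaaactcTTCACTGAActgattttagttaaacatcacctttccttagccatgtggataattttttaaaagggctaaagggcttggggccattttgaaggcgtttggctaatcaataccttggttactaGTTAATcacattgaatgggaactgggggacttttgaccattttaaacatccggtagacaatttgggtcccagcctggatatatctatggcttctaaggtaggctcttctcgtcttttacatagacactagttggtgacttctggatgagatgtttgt
C8b promoter (chr4:104766067-104766366, plus strand): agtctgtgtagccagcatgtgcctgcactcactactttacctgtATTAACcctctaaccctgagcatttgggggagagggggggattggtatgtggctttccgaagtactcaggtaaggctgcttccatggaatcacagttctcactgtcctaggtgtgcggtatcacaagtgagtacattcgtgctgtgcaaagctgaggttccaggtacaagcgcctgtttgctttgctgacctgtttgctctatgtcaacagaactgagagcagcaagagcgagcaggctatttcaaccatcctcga
The C8a window held the HNF1 core at base -107 and a STAT match at base -228 from the start, the C8b window held the HNF1 core at base -206, and the C6 window held none of the 4 motifs. Over the 28 windows found for 26 members, 9 held the HNF1 core (32.1%, against 7.10% of all 32851 windows), 6 the STAT motif (21.4%, against 8.30%), 5 the TATA box (17.9%, against 13.6%) and 4 the C/EBP motif (14.3%, against 10.8%). These are matches of letters, and binding was not measured.

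**Figure D3:**
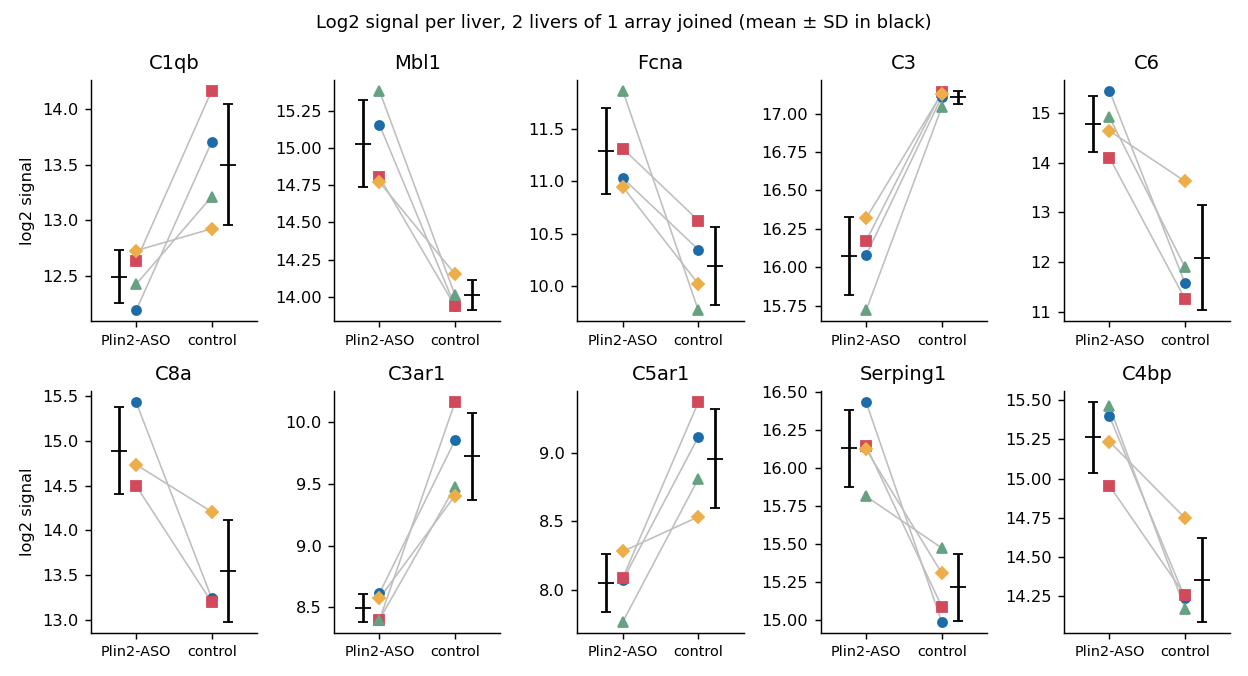
Log2 signal of each liver for the 10 members past the threshold, Plin2-ASO livers on the left and control livers on the right of each panel, with a grey line joining the livers of 1 array and the mean ± SD in black (array colours as in the plot of log2 ratios by pathway; each panel has its own axis). No panel shows an overlap between the groups, and the control liver of array 4 is the highest control for C6 and C8a.

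The members C3ar1 and C5ar1, receptors for fragments of C3 and C5, were both lower, as were 6.07% of all genes. C5ar2, another receptor of C5a and no member of the list, did not pass: its log2 ratios were -0.37, -0.70, 0.16 and -0.44 (mean -0.34 ± 0.17, SE, n = 4; adjusted p = 0.246 by limma). C3ar1, the receptor for C3a on myeloid cells, had log2 signals of 8.61, 8.40, 8.40 and 8.57 in the Plin2-ASO livers and of 9.86, 10.17, 9.48 and 9.41 in the control livers. The groups were far apart on all arrays, and the Plin2-ASO livers lay within a narrow band (SD 0.11). The mean log2 ratio was -1.23 ± 0.18 (SE, n = 4), 2.35-fold lower with an adjusted p of 0.00841 by limma. The probe lies on chromosome 6 (122885185 to 122885244, build mm7). A second probe on that chromosome (122885659 to 122885718) had ratios of -0.91, -1.05, -0.86 and -0.65 and an adjusted p of 0.00917 in the fit of all kept probes. That second probe was well above background in 3 of the 4 Plin2-ASO livers. Leaving out array 1 or array 2 ended the call narrowly (adjusted p = 0.0582 and 0.0506).

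C5ar1, the receptor for C5a on neutrophils and macrophages, had log2 signals of 8.07, 8.09, 7.77 and 8.28 in the Plin2-ASO livers and of 9.12, 9.37, 8.81 and 8.53 in the control livers. The groups did not overlap, with the narrowest gap on array 4. The probe was well above background in 3 of the 4 Plin2-ASO livers and in all 4 control livers. The probe lies on chromosome 7 (14010926 to 14010985, build mm7). The mean log2 ratio was -0.91 ± 0.19 (SE, n = 4), 1.88-fold lower with an adjusted p of 0.0287 by limma. The call ended without array 1 or array 2 (adjusted p = 0.164 and 0.165) and with a robust variance trend (0.0556). C1qbp, a mostly mitochondrial protein that binds the heads of C1q, averaged 0.13 ± 0.15 with a 95% interval of -0.21 to 0.48.

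Of 7 regulators tested, 2 were higher, against 3.69% of all genes. Serping1 encodes the C1 inhibitor, which shuts off the proteases of the classical and lectin pathways. Its log2 signals were 16.43, 16.15, 15.81 and 16.12 in the Plin2-ASO livers and 14.99, 15.09, 15.47 and 15.31 in the control livers. Every Plin2-ASO liver was above every control liver, and array 3 had the narrowest gap. The probe spans 84609527 to 84611033 on chromosome 2 of build mm7. The mean log2 ratio was 0.92 ± 0.19 (SE, n = 4), 1.89-fold higher with an adjusted p of 0.0295 by limma. The call ended without array 1, 2 or 4 (adjusted p = 0.169, 0.159 and 0.0591) and with a robust variance trend (0.0544).

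C4bp encodes a plasma protein that binds C4b and helps factor I to cut it. Its log2 signals were 15.40, 14.95, 15.46 and 15.24 in the Plin2-ASO livers and 14.24, 14.25, 14.17 and 14.75 in the control livers. The groups did not overlap, and the highest control liver was that of array 4. The probe lies on chromosome 1 (130540229 to 130540288, build mm7). The mean log2 ratio was 0.91 ± 0.17 (SE, n = 4), 1.88-fold higher with an adjusted p of 0.0214 by limma, and the call ended without array 1 or array 2 (0.146 and 0.0904).

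The remaining regulators did not pass. Vtn, vitronectin, which blocks insertion of the terminal complex, averaged -0.49 ± 0.14 and was below 0 on all 4 arrays (adjusted p = 0.0806 by limma). It passed without array 3, with a mean of -0.40 (adjusted p = 0.0451), as did 33.3% of all genes. Cfi, factor I, averaged -0.22 ± 0.19, and Clu, clusterin, 0.21 ± 0.15. The membrane-bound inhibitors Cd55 and Cd59a averaged 0.02 ± 0.28 and 0.01 ± 0.19, and both had array 3 on the other side of 0 from most arrays: 1.15 for Cd55 and -0.66 for Cd59a. Cd46, which in the mouse is made mainly in the testis, was not above background.

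**Figure D4:**
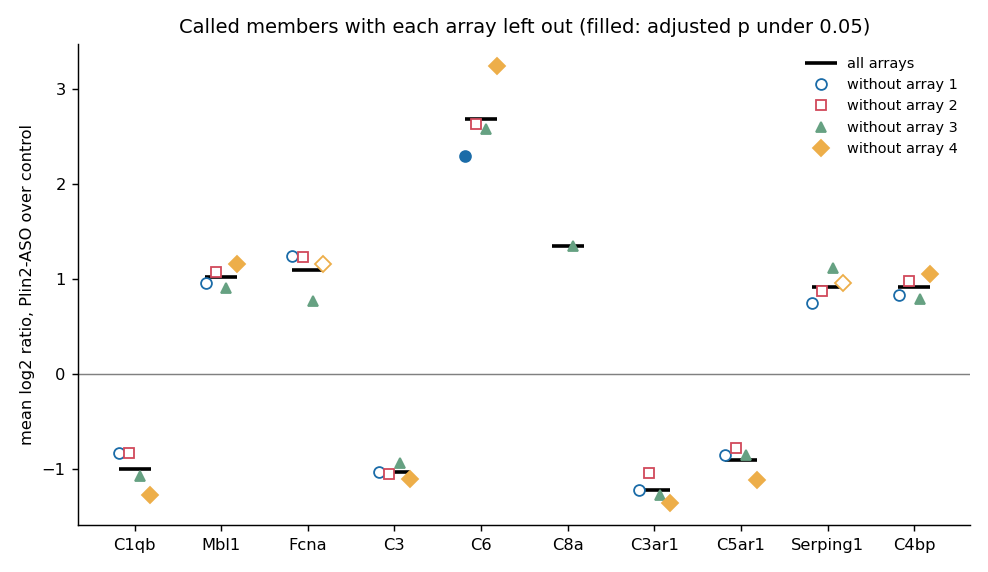
Mean log2 ratio of Plin2-ASO over control for the 10 called members with all arrays (black bars) and with each array left out (symbols; filled where the adjusted p by limma is under 0.05). Every mean keeps its side of 0, and filled symbols are most frequent without array 3.

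A wider list of 25 other complement genes (mostly receptors, regulators and carboxypeptidases), chosen like the members with earlier results known, had 20 genes tested, of which 4 were higher and 5 lower, 45% against 9.77% of all genes. Vsig4, the complement receptor of the immunoglobulin family on resident liver macrophages, had log2 ratios of 2.19, 2.23, 3.33 and 2.33 (mean 2.52 ± 0.21, SE, n = 4; 5.75-fold higher, adjusted p = 0.00172 by limma). Susd4, a complement inhibitor of the membrane, had ratios of 2.85, 2.56, 3.20 and 1.54 and a mean of 2.54 ± 0.26 (adjusted p = 0.00308), but was well above background in only 1 of the 4 control livers. Vsig4 kept its call with any single array left out. Susd4 passed the background filter through the Plin2-ASO livers alone, where it read higher. Its call is therefore not independent of that filter, and the size of its ratio is uncertain. It is counted among the 4 higher genes. Cpn2, a subunit of the carboxypeptidase that inactivates C3a and C5a, averaged 0.78 ± 0.14 (adjusted p = 0.0159, and 0.144 and 0.124 without arrays 1 and 2).

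The 5 lower genes of this list were 4 leukocyte or endothelial surface genes and a collectin. Cd93, once described as a C1q receptor and found on endothelium and myeloid cells, had log2 ratios of -2.54, -2.6, -1.37 and -1.95 (mean -2.12 ± 0.22, SE, n = 4; 4.33-fold lower, adjusted p = 0.00327 by limma), and its second probe averaged -0.42. The chains of complement receptors 3 and 4 were all lower: Itgb2, the shared beta chain, averaged -1.38 ± 0.26 (adjusted p = 0.0203), Itgax -1.43 ± 0.22 (0.0108) and Itgam -0.94 ± 0.20 (0.0325). A second probe of Itgax averaged -0.26. Without array 1 and without array 2 these calls ended for Itgb2 (0.113 and 0.0942), Itgax (0.0662 and 0.0636) and Itgam (0.162 and 0.175), and without array 4 for Itgam (0.0873). Colec10, a partner of Colec11, averaged -1.21 ± 0.27 (adjusted p = 0.0350, and 0.114, 0.171 and 0.0693 without arrays 1, 2 and 4).

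Markers of liver cells were read beside these genes. Over all genes 3.69% were higher and 6.07% lower. Hepatocyte markers were well above background in every liver, with log2 signals of 12.4 to 17.6 over both groups. Of 7 tested 1 was lower (Alb, -1.70). Their sums were 390611 to 530833 in the Plin2-ASO livers and 628155 to 727425 in the control livers. Sums weigh bright probes most, and Alb counts heavily here (mean log2 signal 15.82 in the Plin2-ASO livers and 17.52 in the control livers). Of 6 general macrophage markers 3 were lower (Cd68, Csf1r and Lyz2), with summed signals of 18495 to 30612 in the Plin2-ASO livers and of 53308 to 109730 in the control livers. Lyz2 counts heavily in these sums (mean log2 signal 13.55 in the Plin2-ASO livers and 15.52 in the control livers). The median ratio of the general macrophage markers was -1.25, -1.57, -0.16 and -0.60 on arrays 1 to 4. Arrays 1 and 2 were thus the lowest, as they were for C1qa, C1qb and C1qc. The endothelial median was also lowest on arrays 1 and 2 (-0.96, -0.80, -0.45 and -0.57), so this order was not particular to macrophage markers. The neutrophil and stellate medians were lowest on arrays 2 and 4. Of 6 resident macrophage markers, 5 were higher (Cd163, Clec4f, Folr2, Marco and Vsig4) and Cd5l was lower; the median ratios were 1.42, 2.33, 2.23 and 2.39. Their summed signal, in which Cd5l counts heavily, was 37103, 58196, 59394 and 74457 in the Plin2-ASO livers of arrays 1 to 4. In the control livers it was 73596, 89822, 64796 and 51513. Clec4f had no value on array 1 and Marco none on array 3, so these sums are comparable only within an array. Of 4 neutrophil markers 1 was lower (S100a9), with sums of 2982 to 3644 in the Plin2-ASO livers and of 4715 to 6744 in the control livers. Of the listed markers Tf, Timd4, Ly6g, Retn and Epcam were not tested. The part of these cells in the values of C1q, ficolin A and the receptors was not tested.

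**Figure D5:**
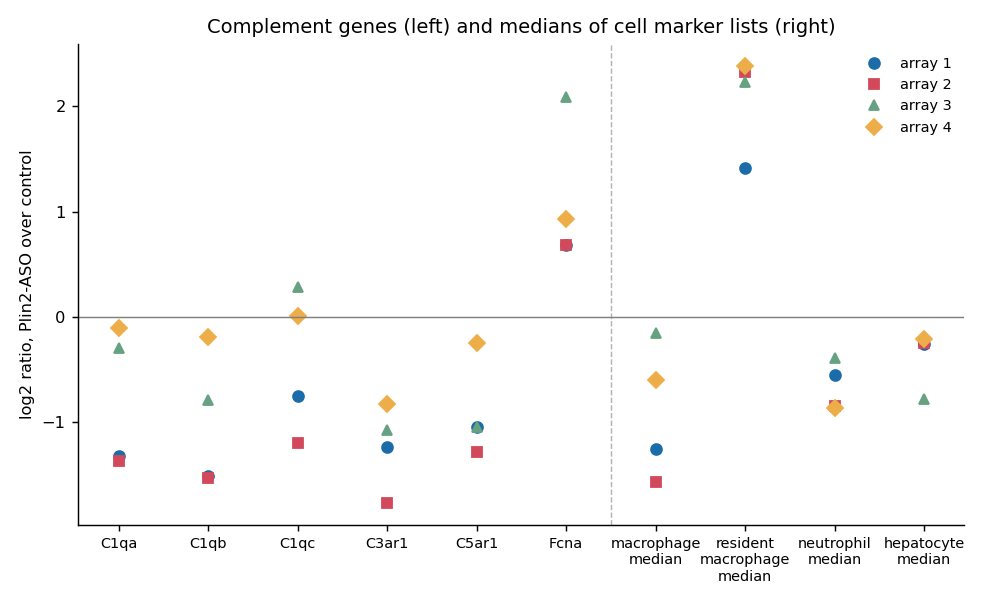
Log2 ratios of Plin2-ASO over control for members known from macrophages or myeloid cells (left of the dashed line) and the medians of the macrophage, resident macrophage, neutrophil and hepatocyte marker lists (right), by array. The C1q chains and the general macrophage median lie lowest on arrays 1 and 2, whereas Fcna and the resident macrophage median lie above 0 on every array.

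Lists for other cells moved as follows, where 6.07% of all genes were lower. Stellate and fibroblast markers had 4 of 6 lower (sums of 38495 to 52267 in the Plin2-ASO livers and of 98166 to 161099 in the control livers), and endothelial markers had 3 of 6 lower (sums of 4471 to 6225 in the Plin2-ASO livers and of 7088 to 9585 in the control livers). Lymphocyte and bile duct markers had 1 of 4 and 1 of 3 lower. Of 4 adipocyte markers 0 were called by limma, and 1 of 4 had an unadjusted p under 0.05, near the 26.9% of all genes. Their median ratios lay between -0.21 and 0.04 on arrays 1, 2 and 4 but at 1.00 on array 3. Of 13 acute phase genes, which like many complement genes are driven by inflammatory cytokines in hepatocytes, 0 were higher and 2 were lower by limma. The lower genes were Hp (mean log2 ratio -1.43) and Hpx (-1.24). An unadjusted p under 0.05 was found for 5 of the 13, against 26.9% of all genes. The serum amyloid genes split the arrays: Saa1 read -1.54 on array 1 against 1.58, 3.20 and 2.19 on arrays 2 to 4, and Saa2 and Saa3 did the same.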

How the data were processed

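The deposited scanner files hold spot intensities that were extracted with Feature Extraction 9.5.1.1, per the file headers, without background subtraction or dye normalization. Per the labels, amplified cDNA was coupled to Cy3 (Plin2-ASO) or Cy5 (control). The log10 ratio of the same deposited files is red over green after the software's corrections, and the authors' series table holds the same ratios on the log2 scale (41174 of 41174 probes equal within 1e-06 on each array, median 0). Both run control over Plin2-ASO, so their sign was turned, and the scanner ratio served as an alternative only.

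In limma 3.58.1 (R 4.3.3), normexp (offset 50) was used for the background and loess within arrays for the ratios. Control spots had weight 0, and spots marked as outliers in either channel were set to missing. Probes well above background on at least 3 of 4 arrays in 1 channel were kept (27160 of 41174). The brightest kept probe measured on at least 3 arrays stood for its gene. Mean log2 ratios were tested against 0 (lmFit, eBayes, two-sided, 7.21 total degrees of freedom as the median), and p-values were adjusted by Benjamini-Hochberg over 18042 genes. Intervals are at 95% and, like the SE of mean log2 ratios, use the moderated variance of eBayes. Log2 signals per liver are the array mean after Aquantile normalization plus or minus a share of the ratio, so the livers of 1 array are not independent readings. The fit was checked on simulated data.

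Probes were named by accession (22951), another accession (131), symbol (6582) or older symbol (3073) in a RefSeq table of GRCm38.p6, and 8437 kept the name in the file. Positions of probes are those of mm7 in the files, and no exon was assigned to them. All 35 members are accounted for, with values on every array for those past the threshold and for the central components. The members, the wider complement list, the marker lists (hepatocyte, resident macrophage, macrophage, neutrophil, endothelial, stellate, adipocyte, bile duct, lymphocyte and acute phase genes) and the tests were chosen with earlier results of these data known. Some genes of the wider list are counted but not reported here by name. Alternatives changed the background correction, normalization, filter, choice of probe, treatment of outlier spots, test and arrays. Only 4 arrays limit the precision.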

Additional observations from a re-analysis of the deposited data

Results flagged for a closer look

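In 3 of 48 complement genes measured on all 4 arrays, members and the wider list together, 1 array lay far from the other arrays relative to the range. Chance alone marks about 1 in 20 such groups of 4. The outlying array was array 3 each time, the array that correlated least with the others across genes. Cd59a, an inhibitor of the membrane pore, read -0.66 on array 3 and 0.21 to 0.27 on the others. Vsig4, the complement receptor of resident liver macrophages, read 3.33 on array 3 and 2.19 to 2.33 on the others. Csmd1, a membrane inhibitor, read -0.51 on array 3 and 0.38 to 0.44 on the others. What sets array 3 apart was not tested.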

How the results depend on the processing

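Counts of called members depended more on the arrays than on the settings. In all, 463 values of single members were recomputed under other settings or with an array left out. Of these, 413 stayed on their side of the threshold, 34 lost a call, 16 gained a call and 0 reversed a call. Some means near 0 of members not called did change sign. Over the settings that kept every array, C2 ranged from -0.08 to 0.09 and Cfb from -0.14 to 0.21. Some settings, such as the robust variance trend, change the test and not the mean. Mbl1, C6, C3ar1 and C4bp kept their calls in all 11 alternatives that used every array. The second probe of C3, tested on its own after the data were seen, gave 0.61 in place of -1.04. With a robust variance trend in limma, 3 members were higher and 2 lower, 933 genes were called in all and 3 of the wider list were lower. With the strict background filter, under which Susd4 was not tested, 2 of the wider list were higher. Over the fits that leave out 1 array each, 0 to 9 members were higher and 0 to 9 lower, 342 to 5789 genes were called, and 2 to 9 genes of the wider list were higher and 1 to 6 lower. The 0 counts came without array 2 (both directions) and without array 1 (lower), by limma, where 13 and 12 members had an unadjusted p under 0.05, against 16.4% and 15.3% of all genes. With each measured on 3 arrays, C8a, Masp1 and Cfp could be refitted only without array 3, and C1s only without array 1. Those refits left their means unchanged, as the array left out held no value for them. The median of the members stayed between 0.08 and 0.20 in all fits.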
